A study of Homo sapiens with 7 samples.

Results

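The 4 human HOX clusters were examined in ATAC-seq peak lists of differentiating H1 human embryonic stem cells. ATAC-seq marks open chromatin by the positions at which the Tn5 transposase inserts adapters. A deposited peak belonged to the set when its summit lay between 20 kb before the first and 20 kb after the last of 38 listed HOX genes of a cluster. By that rule 1322 of the 2093738 deposited peaks were members, between 151 and 257 in each of the 7 libraries. The 38 genes were 10 of HOXA on chromosome 7, 10 of HOXB on chromosome 17, 9 of HOXC on chromosome 12 and 9 of HOXD on chromosome 2. The windows measured 139.7 kb for HOXA, 240.2 kb for HOXB, 157.2 kb for HOXC and 143.4 kb for HOXD in hg38 positions.

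The cells were H1, an established human embryonic stem cell line, sampled along a directed differentiation at 4 stages. There were 2 libraries of undifferentiated cells (hESC), 2 of definitive endoderm (hDE), 2 of anterior foregut endoderm (hAFE) and 1 of pharyngeal foregut endoderm (hPFE). By their titles, the first 2 stages were taken over from older deposited libraries and processed again, while hAFE and hPFE carry no such mark. The step from hDE to hAFE and this difference in origin therefore cannot be told apart. The same holds for the comparison of hESC with hPFE. The labels name neither separate cultures behind the replicates nor the factors added at each stage, and hPFE has no replicate check at all.

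HOX genes encode homeodomain transcription factors that give cells of the embryo their position along the head-to-tail axis. Within a cluster the genes share 1 direction of transcription, and those at the 3′ end, with low numbers, are used earlier and nearer to the head than those at the 5′ end. In the pharyngeal region, genes of the low-numbered groups pattern the arches and pouches, HOXA2 for the second arch and HOXA3 for the third pouch, from which thymus and parathyroid form. Genes of the same number in different clusters are paralogues. In stem cells the clusters are a standard example of chromatin held silent by Polycomb proteins.

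Of the 38 genes, 20 had an entry in the RefSeq promoter table (GRCh38.p14), with 26 distinct start sites between them. HOXA3 had 7 of these and HOXA10 had 2, while HOXC4 and HOXC5 share 1. The 5 windows below are printed because the values that follow turn on them. HOXA2 had a peak at its start mainly in hDE, HOXB1 in hESC, HOXA4 was low in hAFE and high again in hPFE, HOXD10 fell to no peak in hPFE, and HOXA6 is the contrast without a peak in any library. Each runs 5′ to 3′ on the gene's strand, from 250 bases before the start to 50 after it. Their positions are chr7:27102634-27102933 on the minus strand for HOXA2, chr17:48530962-48531261 on the minus strand for HOXB1 and chr7:27130708-27131007 on the minus strand for HOXA4. HOXD10 is at chr2:176116528-176116827 on the plus strand and HOXA6 at chr7:27147725-27148024 on the minus strand. Capitals mark matches to TGATNNAT, a pattern bound by HOX proteins together with their partner PBX, or to ATGCNAAT, the octamer bound by POU factors.
HOXA2: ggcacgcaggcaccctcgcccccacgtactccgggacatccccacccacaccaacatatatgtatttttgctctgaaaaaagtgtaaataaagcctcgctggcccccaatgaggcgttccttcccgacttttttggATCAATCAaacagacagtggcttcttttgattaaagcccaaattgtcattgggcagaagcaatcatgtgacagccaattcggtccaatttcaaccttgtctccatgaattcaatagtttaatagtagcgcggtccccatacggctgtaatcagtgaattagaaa
HOXB1: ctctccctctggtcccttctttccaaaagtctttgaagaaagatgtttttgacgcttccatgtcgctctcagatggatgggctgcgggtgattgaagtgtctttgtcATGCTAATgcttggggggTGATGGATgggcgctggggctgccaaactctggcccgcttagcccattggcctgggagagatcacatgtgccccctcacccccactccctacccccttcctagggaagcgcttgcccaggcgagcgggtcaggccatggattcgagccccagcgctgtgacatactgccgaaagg
HOXA4: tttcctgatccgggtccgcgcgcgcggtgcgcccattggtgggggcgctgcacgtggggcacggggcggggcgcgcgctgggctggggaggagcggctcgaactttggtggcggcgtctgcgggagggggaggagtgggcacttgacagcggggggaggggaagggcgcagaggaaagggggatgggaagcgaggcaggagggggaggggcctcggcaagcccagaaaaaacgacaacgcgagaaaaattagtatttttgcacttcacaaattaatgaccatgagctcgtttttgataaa
HOXD10: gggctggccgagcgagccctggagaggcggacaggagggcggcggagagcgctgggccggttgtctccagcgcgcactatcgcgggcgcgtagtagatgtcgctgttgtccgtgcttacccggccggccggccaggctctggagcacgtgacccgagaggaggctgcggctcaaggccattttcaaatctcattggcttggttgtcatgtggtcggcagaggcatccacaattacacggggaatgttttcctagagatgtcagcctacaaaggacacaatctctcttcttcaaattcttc
HOXA6: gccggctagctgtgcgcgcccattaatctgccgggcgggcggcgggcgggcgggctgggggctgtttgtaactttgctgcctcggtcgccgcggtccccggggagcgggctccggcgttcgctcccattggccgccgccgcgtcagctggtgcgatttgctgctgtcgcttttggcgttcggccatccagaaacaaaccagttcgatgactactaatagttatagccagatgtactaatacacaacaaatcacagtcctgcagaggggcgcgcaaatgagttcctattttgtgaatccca

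The HOX-PBX pattern, searched on both strands, was found in 3 of the 26 HOX windows (11.5%), against 7.42% of 34943 promoter windows of the same length. It stood 114 bases before the HOXA2 start and 125 before that of HOXB1, and the other match was at HOXD11. The octamer was likewise in 3 of 26, at HOXB1 143 bases before the start and at HOXA3 and HOXA10, against 2.97% of all windows. The 2 matches at HOXB1 do not overlap. The pattern TATAAA was in 5 of 26 windows (19.2%) and in 11.6% of all. A GATA-factor pattern, AGATAA, was in 2 HOX windows (7.69%, against 10.4% of all). The forkhead pattern TGTTTAC was in 1 of them (3.85%, against 3.42%), and the T-box pattern TCACACC was in 0 (against 3.45%). The HOX windows had a median observed-to-expected CpG ratio of 0.855, against 0.577 over all promoters, at nearly the same median G+C content (58.0% and 58.7%). A match is a string in the sequence and shows no binding.

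All heights below are the summit pileup, recovered from the deposited fold enrichment and p-value, divided by the genome-wide background of the same library. A height of 10 is thus 10 times that background, which was a pileup of 2.11 to 7.94 by library. The read depth is unknown, and each list stops just below 300000 peaks (298508 to 299374), so the number of peaks says little about a library. Overlapping peaks of 1 library were merged into regions and ranked by p-value, and the top 50000 are called strict. Merging the strict regions of all libraries gave 129718 regions, of which 64 had their strongest summit in a HOX window: 19 in HOXA, 24 in HOXB, 9 in HOXC and 12 in HOXD.

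The clusters held many peaks for their length. The hESC libraries had 196 and 257 HOX summits, hDE 196 and 177, hAFE 160 and 151, and hPFE 185. That was 22.2 to 37.8 summits per 100 kb, against about 10.1 per 100 kb over the genome, or 2.20 to 3.73 times as dense. The hAFE libraries had the lowest numbers, and the single hPFE library lay between the 2 hDE libraries. Strict regions were also denser than over the genome, at 2.498 to 4.56 per 100 kb against 1.69. They made up 13.6% to 19.4% of the HOX regions of a library, against 19.1% to 23.8% of all its regions. As a ratio of the highest to the lowest count HOXC varied most among the clusters, with 47 and 62 summits in hESC, 33 and 31 in hDE, then 31 and 25 in hAFE and 40 in hPFE. HOXD varied least, from 41 to 55.

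HOX regions were also shared more widely. A peak in all 7 libraries was present at 37 of the 64 regions (57.8%), against 30.6% of all regions. A strict peak in all 7 was present at only 1 of them (1.56%), against 11.25% of all. That region lay inside LINC03057, 10323 bp upstream of the HOXB9 start, with heights of 14.7 and 33.3 in hESC, 14.0 and 20.8 in hDE, then 23.9 and 17.7 in hAFE and 8.48 in hPFE. Of the 64 regions, 18 had their summit within 1 kb of a listed start and 19 lay over 10 kb from any.

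**Figure D1:**
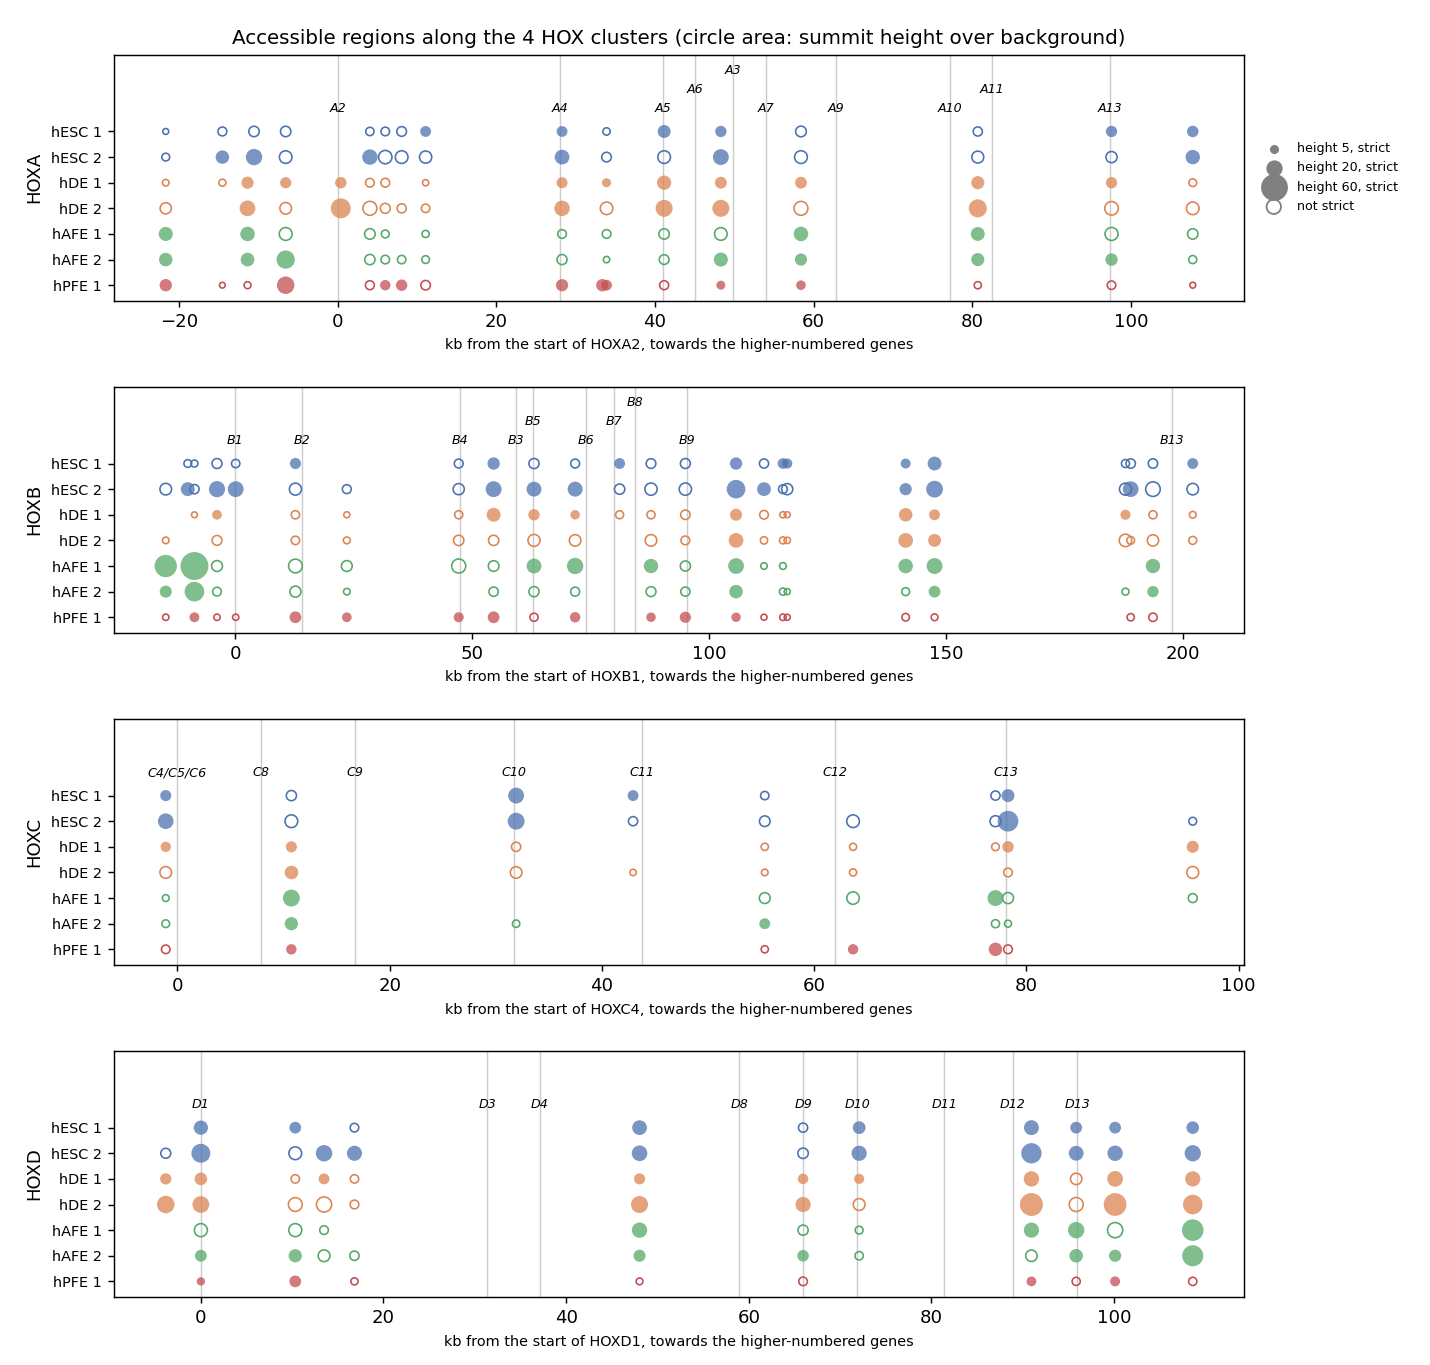
Positions of the 64 HOX regions along the 4 clusters (x axis, kb from the start of the lowest-numbered listed gene towards the higher numbers; HOXA3 and HOXA10 are marked at their farthest start) in the 7 libraries (rows). Circle area is the summit height over the genome-wide background, filled circles are strict, and an empty place means no peak; the largest circle, of height 74.7, is that of the first hAFE library 8625 bp 3′ of the HOXB1 start.

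Peaks at the gene starts were weak for promoters. The starts were scored by the highest summit within 1 kb of any start of the gene. For HOX genes without an entry in the promoter table, the outer end of the RefSeq span was taken as the start. The protein-coding genes set beside them were all scored at promoter table starts. The part of this unlike scoring in the difference was not tested. A peak of any strength was found at 30 and 32 of the 38 starts in hESC, 25 and 30 in hDE, then 24 and 20 in hAFE and 24 in hPFE (52.6% to 84.2%), against 79.1% to 83.8% of 15811 protein-coding genes. A summit in a strict region was found at 13 and 12 HOX starts in hESC, 10 and 6 in hDE, then 2 and 5 in hAFE and 6 in hPFE. Over all protein-coding genes that share was 60.6% to 71.1% in every library, and for HOX it ran from 5.26% in the first hAFE library to 34.2% in the first hESC library.

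The median height at a HOX start with a peak was 8.29 and 10.9 in hESC, 8.52 and 11.1 in hDE, then 9.91 and 7.66 in hAFE and 6.54 in hPFE. Over all protein-coding starts the medians were 22.3 and 34.8, 27.1 and 36.9, 64.8 and 42.6, and 20.7. The HOX median was therefore 0.300 to 0.372 of the general one in hESC, hDE and hPFE, and 0.153 and 0.180 in hAFE. Both hAFE ratios lay below those of the other 5 libraries. The general medians were highest in hAFE, while the HOX medians there lay within the range of the other 5 libraries. Among the 64 regions, the 19 that touched a start window were strict in 12 and 10 cases in hESC, 11 and 6 in hDE, then 3 and 5 in hAFE and 6 in hPFE. The 45 that did not were strict in 15 and 19, 20 and 11, 16 and 16, and 19 cases, with no such drop in hAFE.

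By cluster, the strict starts of HOXC were 6 and 5 of 9 in hESC, 1 and 0 in hDE, then 0 and 0 in hAFE and 1 in hPFE. The 6 in the first hESC library were HOXC4, HOXC5 and HOXC6, which share 1 start, with HOXC10, HOXC11 and HOXC13. The region that touches this shared start window was also strict in the first hDE library, at a height of 10.3. Its strongest summit lay 1107 bp from the start. That hDE library had no summit within 1 kb, so HOXC4, HOXC5 and HOXC6 were not counted there. HOXA had 4 and 2 strict starts of 10 in hESC, 5 and 4 in hDE, then 0 and 2 in hAFE and 2 in hPFE. HOXB had 0 to 2 of 10 in every library, and HOXD 1 to 3 of 9. By paralogue number, groups 1 to 3 (7 genes) had 0 to 3 strict starts per library, groups 4 to 8 (15 genes) 0 to 5, and groups 9 to 13 (16 genes) 1 to 6.

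No HOX gene had a strict peak at its start in all 7 libraries. HOXA3 and HOXD1 came nearest, with 6 each, and missed it in the first hAFE library. HOXA4 had 5, and HOXC13 and HOXD13, the last genes of their clusters, had 4 each. At the other end, 19 of the 38 starts were never strict, among them HOXA7, HOXA9, HOXA10 and HOXA11, HOXB6, HOXB7 and HOXB8, and HOXD3, HOXD4, HOXD8, HOXD11 and HOXD12. HOXA6 and HOXB3 had no peak of any strength within 1 kb in any library. The HOXB3 position is the outer end of its RefSeq span, since the promoter table has no entry for it, and inner starts were not examined.

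HOXA3 is the gene of this family most tied to the pharyngeal pouches. It has 7 listed starts, and the highest summit at any of them was taken. Heights were 12.3 and 24.2 in hESC, 13.6 and 27.96 in hDE, then 15.3 and 19.0 in hAFE and 8.66 in hPFE. The values of hESC, hDE and hAFE came from the start beside HOXA6, and that of hPFE from the most 3′ start. In hPFE the start beside HOXA6 had 7.77. The libraries of the first 3 stages overlapped and hPFE was the lowest. HOXD1 had 19.4 and 34.4, 15.3 and 27.1, 16.2 and 13.5, and 6.71, again with the lowest value in hPFE. Since the median over all starts was also lowest in hPFE, a low height there is not read as a change, and stages are compared by normalized heights further on.

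**Figure D2:**
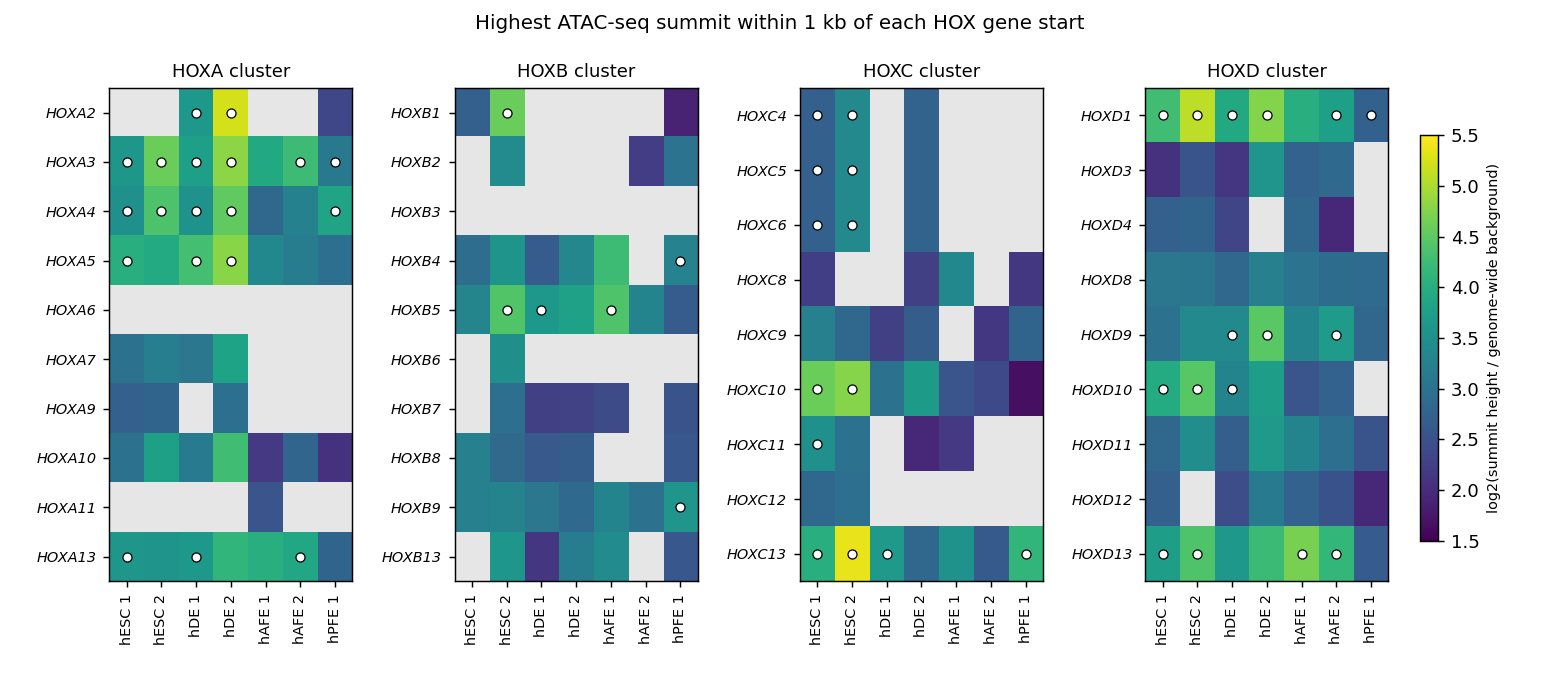
Highest summit within 1 kb of each of the 38 HOX starts (rows) in each library (columns), as log2 of the height over the genome-wide background. Grey cells have no peak and white dots mark starts in a strict region; the dots are most frequent in the hESC columns of HOXC and in HOXA3, HOXA4 and HOXD1, and fewest, 2, in the first hAFE column.

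Few HOX regions appeared or disappeared between stages. A region was counted as gained when it was strict in every library of the later stage and had no peak in any of the earlier one, and as lost in the reverse case. From hESC to hDE, 2 of 64 HOX regions were gained, against 5.43% of all regions, and 0 were lost, against 1.15%. From hDE to hAFE, 0 were gained (2.05% of all) and 2 were lost (3.2% of all). From hAFE to hPFE, 1 was gained (8.45% of all) and 0 were lost (4.18% of all), and from hESC to hPFE, 1 was gained (13.4% of all) and 2 were lost (6.62% of all). Each share of the HOX regions was at most 3.12%. Between replicates of a stage, 0 or 1 HOX region was strict in 1 library and absent from the other, so a count of 1 is no larger than the difference between replicates. Leaving out a library drops a condition of the definition, so these counts can then only stay or rise. The 0 lost from hESC to hDE became 3 without the first hESC library, and the 0 gained from hDE to hAFE became 1 without either hDE library. The 2 regions lost from hESC to hPFE became 5 when either hESC library was left out, and the 1 gained there became 3 without the second. The 1 gained from hAFE to hPFE became 3 without the first and 2 without the second hAFE library.

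HOXA2, a selector gene of the second pharyngeal arch and the hindbrain, had the clearest of these. A region at chr7:27102832-27103299, whose summit lay 398 bp upstream of the start, had heights of 12.5 and 38.04 in the hDE libraries and no peak in the other 5. It was thus gained from hESC to hDE and lost from hDE to hAFE. Both hDE libraries were strict there, with summit pileups of 57 and 302 and deposited fold enrichments of 5.23 and 10.7. In hPFE a separate, weaker summit of height 5.12 stood within 1 kb of the start. The window printed above overlaps the hDE region in its first part, and its HOX-PBX match lies 3′ of that overlap.

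The other region gained from hESC to hDE lay 11360 bp on the 3′ side of the HOXA2 start, at chr7:27091015-27091635. Neither hESC library had a peak there. Heights were 14.2 and 23.8 in hDE, then 20.3 and 17.9 in hAFE and 4.59 in hPFE, where it was not strict. All 4 hDE and hAFE libraries were above hPFE. Another region of this flank, 21666 bp from the HOXA2 start at chr7:27080733-27081421, had a peak in every library, with heights of 3.32 and 5.84 in hESC, 4.15 and 12.1 in hDE, then 18.9 and 17.4 in hAFE and 14.7 in hPFE. It was strict in hAFE and hPFE and in no earlier library.

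Near HOXD1, the lowest-numbered gene of its cluster, a region 3829 bp 3′ of the start was lost from hDE to hAFE. At chr2:176192275-176192969 it had heights of 12.2 and 29.6 in hDE and 9.52 in the second hESC library. The first hESC library, both hAFE libraries and hPFE had no peak. The HOXA2 start and this region were the only HOX regions lost at this step.

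The region gained in hPFE, from hAFE as well as from hESC, lay 5282 bp upstream of the HOXA4 start and within the span of HOXA3. At chr7:27135853-27136283 the hPFE library had a height of 14.7, a summit pileup of 83, a fold enrichment of 7.32 and rank 19144 in its list. The other 6 libraries had no peak there. It rests on 1 library.

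HOXC10 and HOXD10 are paralogues that act in the lower trunk and limbs, and both lost their start region from hESC to hPFE. The HOXC10 region at chr12:53984837-53985159 had heights of 24.2 and 27.3 in hESC, 8.08 and 12.9 in hDE, 5.19 in the second hAFE library, and no peak in the first hAFE or the hPFE library. Both hESC values lay above all others. The wider window of 1 kb around the HOXC10 start still held weak summits of 5.85 in the first hAFE library and 3.18 in hPFE.

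The HOXD10 region at chr2:176116074-176116801 had heights of 15.6 and 22.1 in hESC, 9.83 and 13.4 in hDE, then 5.85 and 6.75 in hAFE and no peak in hPFE. The order hESC, hDE, hAFE held without overlap between the libraries of these stages. HOXA10, the third listed gene of this paralogue group, had no strict start in any library. Its heights were 8.05 and 13.6, 8.96 and 19.3, 4.50 and 7.01, and 4.24, lower in hAFE and hPFE than in every hESC and hDE library.

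**Figure D3:**
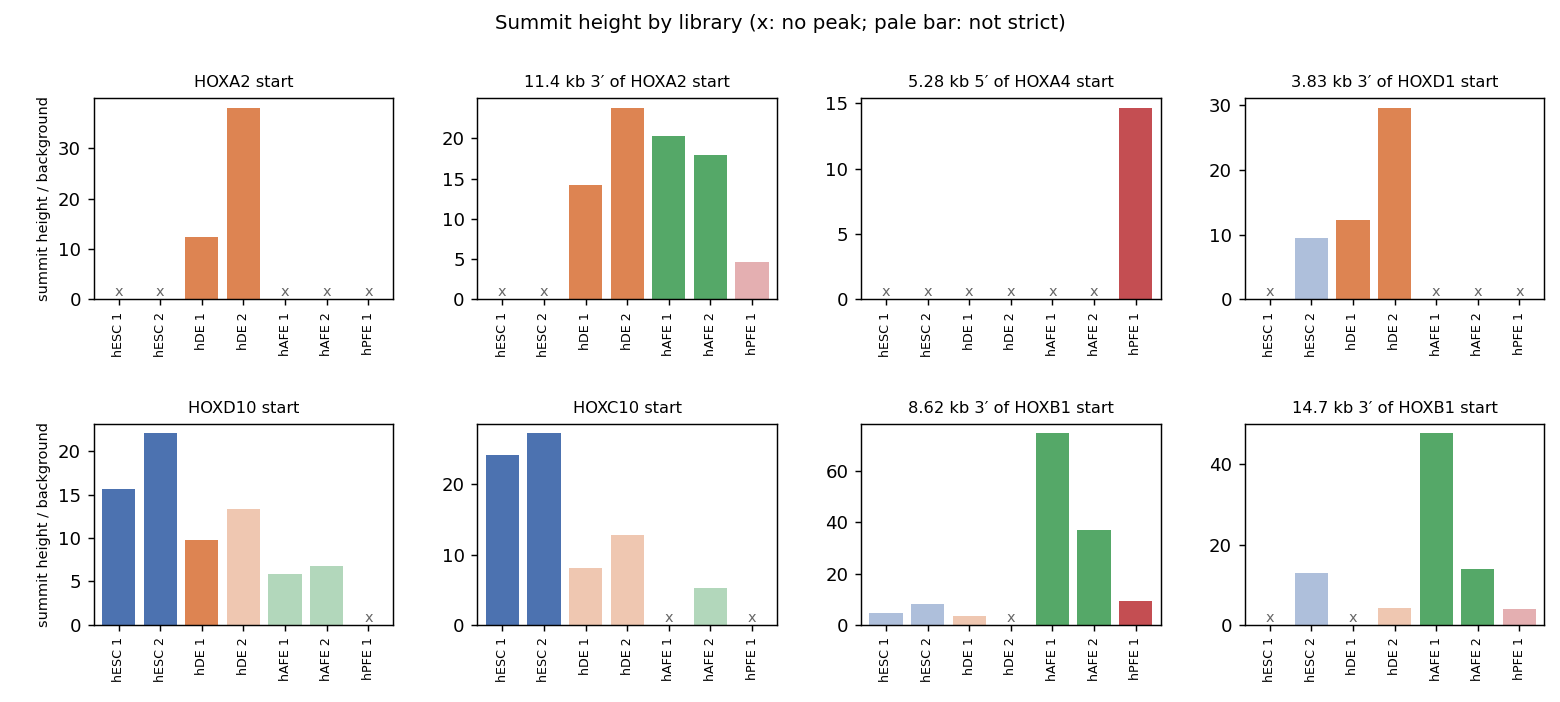
Summit height over background (y axis, linear, a separate scale in each panel) in the 7 libraries (x axis) for the 6 HOX regions gained or lost in a comparison and for 2 regions 3′ of HOXB1. Dark bars are strict, pale bars are not, and x marks no peak; the HOXA2 start has bars in hDE alone, and the HOXB1 regions are highest in the 2 hAFE libraries.

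In height over background, the highest HOX summit lay 3′ of HOXB1, a gene of the hindbrain and the earliest of its cluster. Such heights differ in range between libraries. By rank it was 7448 in the first hAFE library. A region inside the non-coding gene HOTAIRM1, 6550 bp 3′ of the HOXA2 start, ranked slightly higher, at 7254 in hPFE. The HOXB1 summit and a neighbour met neither definition of gained or lost, since weaker peaks were present at other stages. Both were singled out after their values were seen. At chr17:48522067-48522651, 8625 bp from the start and inside the non-coding gene LOC105371808, heights were 4.74 and 8.22 in hESC, 3.28 and no peak in hDE, then 74.7 and 36.9 in hAFE and 9.36 in hPFE. The region at chr17:48516085-48516536, 14679 bp from the start, had no peak and 12.98 in hESC, no peak and 4.16 in hDE, then 47.7 and 14.0 in hAFE and 3.89 in hPFE. At both, the 2 hAFE libraries lay above the other 5.

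The HOXB1 start itself went another way. Its region at chr17:48530428-48531260 had heights of 6.63 and 24.0 in hESC, no peak in hDE or hAFE, and 3.71 in hPFE. The hESC libraries were far apart there, and only the second was strict. The region 3861 bp 3′ of the start had a peak in all 7, at 9.47 and 25.1, 9.18 and 9.19, 11.3 and 7.27, and 3.89.

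To compare heights between libraries of different range, they were quantile-normalized over the 39726 regions with a peak in all 7. These included 37 HOX regions, 13 of the 19 in HOXA, 12 of 24 in HOXB, 4 of 9 in HOXC and 8 of 12 in HOXD. The remaining 27 HOX regions lacked a peak in at least 1 library and are not part of what follows. The median HOX region stood at percentile 39.3 and 41.5 in hESC, 45.6 and 30.6 in hDE, then 21.9 and 28.6 in hAFE and 43.4 in hPFE. Both hAFE values were the lowest, though the second hDE library was close to them.

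A region was called higher or lower when the mean normalized height differed at least 2 times and no library of 1 stage overlapped the other. From hESC to hDE, 2 HOX regions were higher (7.17% of all regions were) and 3 lower (6.8% of all). The 2 became 4 without the first hESC library and the 3 became 8 without the first hDE library. From hDE to hAFE, 0 were higher (5.59% of all) and 7 of 37, or 18.9%, were lower (5.99% of all). The 0 became 2 or 1 without the first or second hDE library and 3 without the first hAFE library. From hAFE to hPFE, 10 of 37, or 27.0%, were higher (6.23% of all) and 1 was lower (6.96% of all), or 0 without the second hAFE library. From hESC to hPFE, 3 were higher (9.45% of all) and 4 lower (11.2% of all), and the 3 became 6 and 5 without the first and the second hESC library. The median log2 change of the HOX regions was -0.17, then -0.36, then 0.51 over the 3 successive steps, against -0.02, 0.02 and 0.01 over all regions, and 0.14 against 0.03 from hESC to hPFE.

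Most HOX regions are of modest height, and 32 of the 37 lay below the general median of the mean over all libraries. Among all 19863 regions below it, 9.11% were lower from hDE to hAFE and 10.6% were higher from hAFE to hPFE. The HOX counts among those were 5 and 10 of 32. Between the replicates, 1 HOX region was at least 2 times higher and 1 lower in the second hESC library than in the first. Over all regions 6.81% were higher and 6.19% lower. In the second hDE library 0 were higher and 3 lower (5.85% and 4.65% of all). In the second hAFE library 1 was higher and 0 were lower (3.13% and 3.01% of all). Set against the first hAFE library alone, hPFE had 15 of 37 regions higher and 0 lower (7.48% and 7.91% of all). Against the second it had 10 higher and 1 lower (7.48% and 8.18% of all). The hPFE library had the lowest median height over all regions, 9.18 against 31.5 and 19.0 in hAFE, a difference that normalization removes at the median and in the ranks; its part in the result was not tested.

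**Figure D4:**
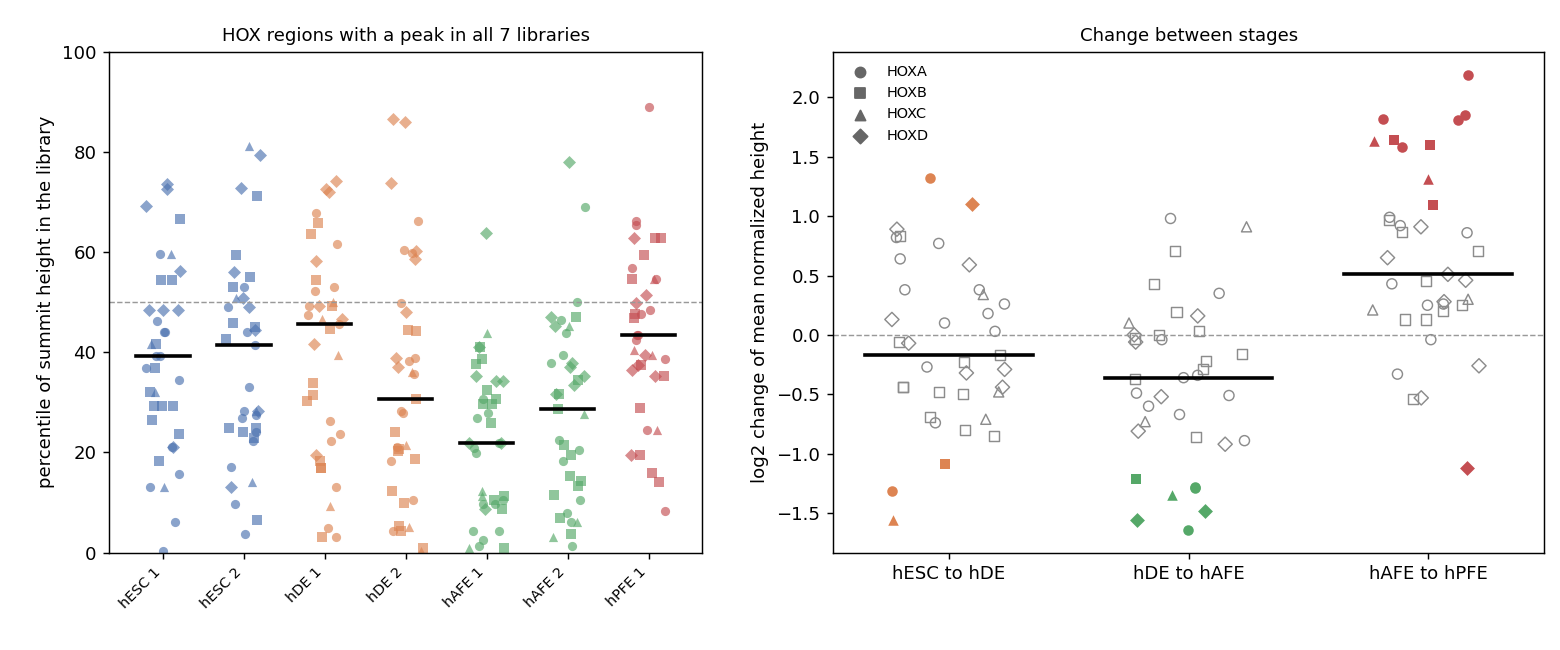
Left, percentile of the summit height within each library (y axis) of the 37 HOX regions with a peak in all 7 libraries; right, log2 change of the mean normalized height between successive stages, filled where called higher or lower. Shapes give the cluster and black lines the medians, which run from percentile 21.9 in the first hAFE library to 45.6 in the first hDE library and change by 0.51 from hAFE to hPFE.

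The regions higher in hPFE than in hAFE were 5 in HOXA, 3 in HOXB and 2 in HOXC, and none in HOXD. Along HOXA, 4 of them followed each other from within HOXA3 to beyond HOXA4, between positions 27108526 and 27136706 of chromosome 7. The other was the HOTAIRM1 region, with normalized heights of 12.7 and 10.8 in hESC and 16.7 and 9.48 in hDE. There hAFE had 9.43 and 27.2, far apart, and hPFE had 47.7. At the HOXA4 start (chr7:27130198-27131465) normalized heights were 14.1 and 15.4 in hESC, 16.0 and 17.5 in hDE, then 5.07 and 9.34 in hAFE and 24.9 in hPFE. The hAFE libraries were the lowest and hPFE the highest. It was lower by 1.28 on the log2 scale from hDE to hAFE (log2 change -1.28) and higher by 1.85 from hAFE to hPFE.

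The region 5829 bp upstream of the HOXA4 start had the largest difference of the 37, 2.19 on the log2 scale, with 5.07 and 3.89 in hAFE and 20.3 in hPFE. It adjoins the region found in hPFE alone. At the most 3′ of the 7 HOXA3 starts, normalized heights were 14.1 and 10.2 in hESC, 4.59 and 5.07 in hDE, then 3.89 and 5.69 in hAFE and 16.7 in hPFE. There hDE was already low, so the value in hPFE was near that of the first hESC library. At the HOXA3 start beside HOXA6 the 7 values ran from 9.21 to 22.01 with overlapping stages, and nothing was called. The HOXA5 start, near the gene that acts in the lung and the neck, was lower in hAFE than in hDE (26.4 and 21.8, then 6.71 and 8.81). Its hPFE value of 15.3 gave a log2 change of 0.99, just short of a call.

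In HOXB, the called regions lay 1410 bp 3′ of the HOXB2 start, in HOXB3 and at the start of HOXB9. HOXB9 had normalized heights of 11.4 and 10.3 in hESC, 11.7 and 5.48 in hDE, then 6.44 and 7.90 in hAFE and 21.6 in hPFE, the highest of the 7. The HOXB3 region, 4703 bp 3′ of the outer start, had 19.3 and 18.6, 25.1 and 7.38, 6.92 and 8.15, and 23.3. There the hDE libraries differed over 3-fold and only the first lay apart from hAFE.

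In HOXC, the region 1107 bp inside the shared start of HOXC4, HOXC5 and HOXC6 had normalized heights of 14.7 and 17.8 in hESC, 14.1 and 9.55 in hDE, then 3.66 and 5.69 in hAFE and 14.1 in hPFE. The region 201 bp upstream of the HOXC13 start had 21.6 and 37.6, 17.5 and 5.36, 7.38 and 4.59, and 14.4. Both regions were called higher from hAFE to hPFE by 1.63 and 1.31 on the log2 scale, and neither exceeded its hESC values. The HOXC13 region was also called lower from hESC to hDE, where the hDE libraries were 3-fold apart. A second region, 981 bp inside the HOXC13 start, lacked a peak in the second hDE library and was not normalized. Its heights over background were 8.05 and 11.5 in hESC and 5.68 in the first hDE library. In hAFE they were 24.3 and 6.23, and in hPFE 17.5.

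In HOXD, 0 regions were called higher from hAFE to hPFE. A region 12643 bp upstream of HOXD13 and inside EVX2, a homeobox gene beside the cluster, was the 1 HOX region lower at that step. It was no longer called without the second hAFE library, and 6.96% of all regions were lower there. Its normalized heights were 20.1 and 19.9 in hESC, 29.3 and 30.7 in hDE, then 23.9 and 34.5 in hAFE and 13.2 in hPFE, the lowest of the 7. A region 4158 bp upstream of the HOXD13 start and another 2069 bp upstream of the HOXD12 start were lower in hAFE than in hDE, with log2 changes of -1.48 and -1.56. HOXA had 3 regions lower at that step, HOXB 1 and HOXC 1. At the HOXD13 start, in contrast, the 7 normalized heights stayed within 12.9 to 17.2. HOXD1 had 27.3 and 29.9, 21.0 and 21.2, 9.63 and 12.9, and 13.5, and was called lower from hESC to hPFE with a log2 change of -1.08.

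The clusters also hold microRNA genes. Within 500 bp of MIR10A, in HOXB, and of MIR196A1 no library had a peak. MIR196B, between HOXA9 and HOXA10, had heights of 9.95 and 14.1 in hESC, 5.90 and 12.9 in hDE, then none in hAFE and 4.77 in hPFE. MIR10B, in HOXD, had a peak in 3 of the 7 libraries, of height 5.92 or less. In HOXC, MIR196A2 had a peak in the first hDE library alone, of height 3.50, and MIR615 had peaks of 5.47 to 12.2 in 4 libraries. MIR3185, in HOXB, had a peak in every library, with heights of 8.53 and 20.3 in hESC, 6.34 and 12.2 in hDE, then 19.8 and 12.5 in hAFE and 6.71 in hPFE. MIR7704 also had a peak in all 7, the one given above for the HOXD1 start.

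By nearest gene, 216 regions belonged to 24 genes that regulate HOX genes or bind beside their products. From hESC to hPFE, 24 of these (11.1%) were gained, against 13.4% of all regions, and 10 (4.63%) were lost, against 6.62%. From hAFE to hPFE, 10 (4.63%) were gained, against 8.45%, and 10 were lost, against 4.18%. The MEIS proteins are partners of HOX proteins on DNA. MEIS2 had 4 of 29 regions gained and 2 lost from hESC to hPFE, and MEIS1 had 3 of 30 gained and 0 lost. ALDH1A2 makes retinoic acid, an inducer of HOX genes, and CYP26A1 breaks it down. They had 2 of 9 and 1 of 8 regions gained from hAFE to hPFE. CDX1, CDX2 and CDX4, activators of the middle HOX genes, had only 2, 4 and 2 regions. None of these was gained or lost at any step, but they are too few for that to be read as a result.

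The stage labels were checked at marker genes. Of 5 stem cell genes with a listed start, all were in a strict region in both hESC libraries, 4 and 2 in hDE, then 2 and 2 in hAFE and 2 in hPFE. The NANOG start was strict in hESC alone, while that of LIN28B was strict in all 7 libraries and that of SOX2 in 6. Regions nearest to 6 stem cell genes were strict in 29 and 33 cases in hESC and in 11 to 17 in the later libraries, and those nearest to 7 definitive endoderm genes in 18 and 21 cases in hESC, 56 and 44 in hDE, then 35 and 32 in hAFE and 21 in hPFE. For 7 genes of the anterior and pharyngeal foregut the numbers were 26 and 25, 37 and 33, 32 and 37, and 33. These region counts do not set hAFE and hPFE apart from hDE. Of the 4 foregut starts listed, 2 and 3 were strict in hESC, 3 and 2 in hDE, then 3 and 3 in hAFE and 4 in hPFE. The TBX1 start was strict in hPFE alone. Genes of mesoderm and mesenchyme (12 genes) had 34 and 31, 43 and 40, 34 and 32, and 25 strict regions. Neural and neural crest genes (6 genes) had 23 and 30, 24 and 16, 25 and 26, and 17. By these region counts hPFE was the lowest or nearly the lowest in both lists, but not by strict starts. Those were 4 and 3, 4 and 3, 5 and 4, and 4 of 6 mesoderm and mesenchyme starts. For 5 neural and neural crest starts they were 5 and 3, 2 and 0, 2 and 2, and 4. The part of other cell types in the HOX values was not tested.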

How the data were processed

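Chromatin accessibility was measured by paired-end ATAC-seq in 7 libraries of H1 cells, and 1 peak list per library was analysed. Per the submitters' processing notes hg38 was the build and DiffBind a tool, its version not stated. Which programs aligned reads and called peaks is not given in the sources used here. Abbreviations in the deposited file names stand for duplicates and mitochondrial reads taken out, positions set to Tn5 cuts, p up to 0.01 and at most 300000 peaks. The authors deposited for each peak a fold enrichment (a ratio to the local background) and −log10 values of p and q at the summit. The deposited display score was not used. The members and lists were chosen with earlier results of these data known.

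Summit pileup and local mean were recovered from fold enrichment and p as a whole number under a Poisson tail, and matched the deposited −log10 p within 0.001 for 100.0% of peaks. The height is the pileup divided by the modal local mean of the weaker peaks. Only chromosomes 1 to 22 and X were used. Samples were grouped by their titles. No test was run: 2 libraries against 2 or 1 cannot give a small exact p, and values are given per library beside the share over all regions. Named genes were those with a start within 1 kb of a gained or lost region, those strict in all libraries (none) and the nearest gene of the 3 highest gained and lost regions; others are given by range, or named after their values were seen. Quantile normalization was chosen after seeing the data. Scripts ran on Python 3.11.15 with numpy 2.4.6, pandas 2.3.3, scipy 1.17.1 and numba 0.67.0 and were tested on simulated data.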

Additional observations from a re-analysis of the deposited data

How the results depend on the processing

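The limit for a strict region set most counts, and also the number of HOX regions, which was 64 in the main setting. The share over all regions was not computed at the other settings, so the counts have no general rate beside them. With the top 25000 regions there were 26 HOX regions. Of these, 0 were gained from hESC to hDE, 0 were lost from hDE to hAFE and 1 was lost from hESC to hPFE. With the top 100000 there were 133. Of these, 3 were lost from hESC to hDE, 5 were lost from hDE to hAFE and 6 were gained from hAFE to hPFE. From hESC to hPFE, 4 were gained and 10 lost. With strict defined as a height of at least 10 there were 113, of which 1 was lost from hESC to hDE and 5 from hESC to hPFE. With peaks under a height of 4 ignored there were 64, of which 1 was gained from hDE to hAFE and 1 lost from hAFE to hPFE. Without the flanks there were 48, of which 1 was gained from hESC to hDE and 1 lost from hDE to hAFE. Here the regions near HOXA2 and HOXD1 drop out, as they lie outside the listed genes. A minimum overlap of 50% changed no count. HOX starts in a strict region, in the order of the 2 hESC, 2 hDE, 2 hAFE and the hPFE libraries, were 3, 4, 2, 1, 0, 0 and 2 with the top 25000 and 21, 22, 19, 18, 12, 15 and 18 with the top 100000. With a height of at least 10 they were 13, 22, 10, 20, 10, 5 and 3 in the same order, so the first hAFE library was no longer below both hDE libraries, while the second still was. Within 2 kb the strict starts were 15, 13, 14, 7, 4, 6 and 8 in the same order.

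By their definition, counts of gained and lost regions can only stay or rise when a library is left out. Leaving out 1 replicate at a time gave 2 to 3 gained and 0 to 3 lost from hESC to hDE, 0 to 1 gained from hDE to hAFE, 2 to 3 gained from hAFE to hPFE, and 1 to 3 gained and 5 to 5 lost from hESC to hPFE. For normalized heights it gave 2 to 4 higher and 2 to 8 lower from hESC to hDE, 0 to 3 higher and 6 to 10 lower from hDE to hAFE, 10 to 15 higher and 0 to 1 lower from hAFE to hPFE, and 5 to 6 higher and 4 to 6 lower from hESC to hPFE. Scaling by the median alone, also chosen after seeing the data, gave 14 higher and 1 lower from hAFE to hPFE and 8 lower from hDE to hAFE. No paired analysis was possible because no result comes from a test and the labels do not tie replicate numbers together across stages. With 1 library, hPFE has no replicate check, read depth is unknown, and 18 of the 38 starts are span ends only. Where a count moved, the cause was not tested.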
